A study of Mus musculus with 12 samples.

Results

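Hearts of mice that received agrin after a myocardial infarction were compared with hearts of mice that had a sham operation, by polyA RNA sequencing of heart tissue. The comparison takes 8 of the 12 libraries of the study. There were 4 MI+Agrin libraries, numbered 1, 3, 4 and 5, and 4 Sham libraries, numbered 2, 3, 4 and 5, one animal each per the design text. All animals were wild-type (WT) female Mus musculus of 12 weeks. Infarction was made by tying off the left anterior descending artery (LAD) for good, and RNA was taken 2 weeks after it. The MI+Agrin hearts differ from the Sham hearts by the infarct and by agrin together, and these cannot be told apart in this comparison. The remaining 4 libraries, infarcted hearts given PBS (MI+PBS), entered the estimate of the spread and are quoted beside part of the results for scale. The labels do not give the dose of agrin, its route, or the region of the heart sampled.

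Agrin is a heparan sulfate proteoglycan of basement membranes. It is best known for organising the neuromuscular junction through LRP4 and MuSK, and in muscle it also binds dystroglycan, the laminin receptor at the core of the dystrophin complex. In neonatal mouse heart it is known as a matrix signal that loosens the dystrophin complex and lets YAP, a transcriptional co-activator, drive division of cardiomyocytes. After permanent coronary ligation in an adult mouse, dead muscle is cleared by neutrophils and macrophages, fibroblasts divide and lay down a collagen scar, and the surviving muscle changes its metabolism, channels and contractile genes.

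The values were the authors' normalized counts, recovered as 20238512 to 22742027 whole reads in 11 libraries, with 15799 to 15898 genes detected per library. On the first principal component of the 8 libraries, which held 41.8% of the variance, the Sham hearts lay between -37.68 and -19.92 and the MI+Agrin hearts between 18.46 and 37.46. MI+Agrin 1 stood apart on the second component, which held 17.6%, at -36.83 against -20.45 to 21.75 for the other 7. That library also had the highest summed level of the 11 adipocyte markers, 13701 normalized counts against 3970 to 8074 in the other 7, and of the 10 epicardial markers, 7943 against 3041 to 4973. Among 8 atrial markers its sum was also the highest, 152371 against 54569 to 107580. Sham 2 held 661 normalized counts of Scgb1a1, a secretory protein of airway epithelium, against 0 to 1.06 in the other 7. Heart muscle markers defined every library: Myh6, the main adult myosin heavy chain, was the most abundant of the genes named here, at 489009 to 711982 normalized counts.

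Genes averaging 5 or more normalized counts over the 12 libraries numbered 14906, and 4261 of these (28.6%) differed between MI+Agrin and Sham hearts at an adjusted p under 0.05. The 4261 comprised 2290 (15.4% of the genes tested) that were higher in MI+Agrin hearts and 1971 (13.2%) that were lower. The changes were mostly modest: 598 genes (4.01%) passed and changed by at least 1 log2 unit, 480 upward and 118 downward. The median absolute log2 fold change of the 4261 genes was 0.42. With its sign kept, the median over all genes tested was -0.0021. Without MI+Agrin 1 the count was 4169, and without Sham 2 it was 3363, whereas without Sham 4 the 1971 lower genes became 1313. Against the same Sham libraries the MI+PBS hearts differed in 6616 genes (44.4%), and the MI+Agrin and MI+PBS hearts differed from each other in 245 (1.64%).

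**Figure D1:**
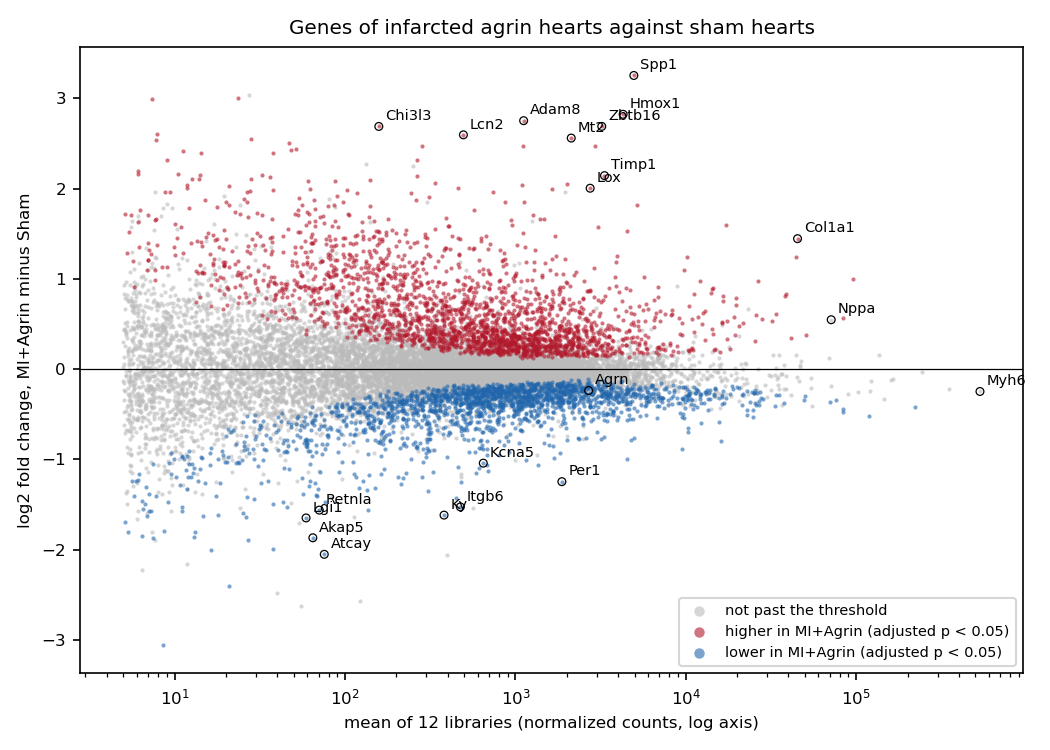
Each point is 1 of 14906 genes; the x axis is the mean of the 12 libraries in normalized counts on a log axis and the y axis the log2 fold change of MI+Agrin minus Sham. Red points (2290) were higher and blue points (1971) lower at an adjusted p under 0.05, and circled genes are named in the text.

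Fold changes below are differences of mean log2(normalized count + 1), MI+Agrin minus Sham, ± the standard error from limma, with its adjusted p. Counts of list members called higher or lower stand beside 15.4% and 13.2% of all genes tested, and several lists lie near these shares. Values by library follow the order Sham 2, 3, 4 and 5 and MI+Agrin 1, 3, 4 and 5, in normalized counts. Over all genes tested, 4832 (32.4%) had no overlap between the 4 Sham and the 4 MI+Agrin libraries. Because whole tissue was sequenced, fewer cells of a type and less RNA per cell cannot be told apart. Among the genes given with values, 18 share more than 10% of their exon bases with another annotated gene, and the strand setting of the counting was not given in the sources used here, so their counts may include reads of the neighbour. They are Mt2 (73.5%), Nppa (61.5%), Zfp36l1 (55.9%), Ftl1 (34.6%), Kcnj3 (31.1%), Ube2c (22.8%), Irf2bp2 (20.5%), Fabp3 (19.6%), Gadd45a (19.1%), Spp1 (18.8%), Plekhh1 (14.8%), Zfp703 (13.5%), Myh7 (13.3%), Sirt3 (12.7%), Mcm7 (12.6%), Plod3 (11.9%), Atcay (10.8%) and Pfkm (10.7%). Chi3l3 and Ftl1 are also uncertain because near-identical copies or pseudogenes exist in the mouse genome.

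Transcripts of agrin itself, of dystroglycan and of YAP did not pass the test between MI+Agrin and Sham hearts, while the agrin receptor gene Lrp4 was lower, as given with the agrin receptors. Agrn, on GRCm38 chr4:156165290-156197488, stood at 2928, 2777, 2919 and 3301 in Sham hearts and at 3098, 2168, 2425 and 2494 in MI+Agrin hearts. The groups overlapped because MI+Agrin 1 was high, and the difference of -0.24 ± 0.10 did not pass (adjusted p = 0.101); without that library it was -0.34 (adjusted p = 0.0135). These values count mouse RNA and do not measure agrin protein. Dag1, encoding dystroglycan, lay between 14814 and 16722 in all 8 libraries and differed by -0.04 ± 0.06 (adjusted p = 0.702). Yap1 was 3811, 3518, 3616 and 3569 in Sham and 3508, 3073, 2938 and 3054 in MI+Agrin hearts, every MI+Agrin value below every Sham value, with a difference of -0.21 ± 0.08 that narrowly missed the threshold (adjusted p = 0.0579). Yap1 passed without MI+Agrin 1 (-0.26, adjusted p = 0.0227) and without MI+PBS 3 (-0.21, adjusted p = 0.0172). It also passed by limma with only the 8 Sham and MI+Agrin libraries (adjusted p = 0.0241) and with sample quality weights (-0.24, adjusted p = 0.0129). Leaving out MI+Agrin 1 and MI+PBS 2 together gave -0.26 (adjusted p = 0.0179 by limma). In all remaining settings tried, edgeR and DESeq2 among them, Yap1 did not pass.

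The classic stress markers of the ventricle were variable. Nppb, encoding B-type natriuretic peptide, was 3968, 2912, 3206 and 5725 in Sham and 2886, 9689, 12610.2 and 7796 in MI+Agrin hearts. MI+Agrin 1 lay below every Sham heart and the other 3 lay above them all. The difference of 0.92 ± 0.39 did not pass (adjusted p = 0.0932), and without MI+Agrin 1 it was 1.37 (adjusted p = 0.00388). Nppa, encoding atrial natriuretic peptide, differed by 0.55 ± 0.33 (adjusted p = 0.241) with overlapping libraries. Neither Myh6 (-0.25 ± 0.21, adjusted p = 0.409) nor Myh7, the fetal myosin heavy chain (-0.08 ± 0.18, adjusted p = 0.773), passed. Postn, encoding the fibroblast matrix protein periostin, rose by 0.84 ± 0.28 (adjusted p = 0.0377). That call was lost without any one of Sham 3, Sham 4, MI+Agrin 3, MI+Agrin 4 or MI+Agrin 5, with values of 0.63 to 0.84.

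The 12 largest rises were of 2.32 to 3.25 on the log2 scale, among genes averaging 50 or more normalized counts. Spp1, encoding osteopontin, a secreted phosphoprotein of macrophages and fibroblasts in wounds, was 648, 479, 492 and 751 in Sham hearts and 2362, 6562, 5451 and 11257 in MI+Agrin hearts. The lowest MI+Agrin heart was above the highest Sham heart, and the difference was 3.25 ± 0.39 (adjusted p = 0.000272). Hmox1, encoding the heme oxygenase that breaks heme down, was the most uniform of them, at 789, 1052, 814 and 612 and then 5739, 5180.1, 6093 and 5733. Its difference of 2.82 ± 0.13 had the smallest adjusted p of the 12, 2.99e-07. The others were Adam8, a metalloproteinase of leukocytes (2.75), Zbtb16, encoding the transcription factor PLZF (2.69), Chi3l3, a chitinase-like protein of alternatively activated macrophages (2.69), Lcn2, an iron-scavenging protein of neutrophils (2.59), Mt2, a metallothionein (2.56), Ccl7, a chemokine that attracts monocytes (2.47), Serpina3n, an acute-phase protease inhibitor (2.47), Arg1, the arginase of alternatively activated macrophages (2.47), Sh2d5 (2.43) and the nuclear receptor gene Nr4a3 (2.32). The largest adjusted p of these 12 was 0.00218. Nr4a3 was 74.8, 73.5, 72.9 and 49.2 in Sham and 879.7, 255, 213 and 266 in MI+Agrin hearts, where MI+Agrin 1 lay far above the other 3.

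Among these 12, Zbtb16 had the largest difference between the infarcted groups. It was 1128, 765, 918 and 792 in Sham, 2769.7, 1513, 4187 and 3243 in MI+PBS 1, 2, 3 and 5 and 5684, 5686, 4752 and 7083 in MI+Agrin hearts. MI+Agrin hearts were above all Sham hearts, by 2.69 ± 0.25, while the difference from MI+PBS hearts, 1.06, missed the threshold narrowly (adjusted p = 0.0511).

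The 12 largest falls were smaller and came from less abundant genes. Atcay, encoding caytaxin, a protein best known from neurons, was 151, 94.8, 172 and 107 in Sham and 55.7, 37.5, 15.0 and 25.4 in MI+Agrin hearts, a difference of -2.05 ± 0.34 (adjusted p = 0.00129). Akap5, encoding an anchor of protein kinase A near adrenergic receptors and channels, was 151, 109.7, 111 and 135 and then 28.4, 39.5, 35.7 and 32.0, a difference of -1.87 ± 0.19 (adjusted p = 0.00013). In both genes every MI+Agrin heart lay below every Sham heart. Ky, encoding a peptidase of the muscle Z-disc, fell by 1.62 and Itgb6, encoding the beta subunit of an integrin that activates TGF-beta, fell by 1.53. The rest were Lgi1, a secreted protein known from epilepsy (-1.65), Fbxo44, a ubiquitin ligase subunit (-1.56), Retnla, a secreted protein of alternatively activated macrophages (-1.56), Clec3a (-1.47), Plekhh1 (-1.43), Pla2g2d, a secreted phospholipase (-1.41), Klhl3, which targets WNK kinases for degradation (-1.40), and Lrrc55, an accessory subunit of potassium channels (-1.38). Their adjusted p ranged from 0.000114 to 0.022, and Retnla lost its call without Sham 2 (-1.34), in which it was highest at 206.

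Most collagen genes were higher. Of 19 collagen genes tested, 14 were higher in MI+Agrin hearts and 0 lower, against 15.4% and 13.2% of all genes, with a median log2 fold change of 0.68 against -0.0021 over all genes. Col1a1, the main fibrillar collagen chain of scars, was 19428, 22757, 13387 and 22294 in Sham and 37574, 51870.2, 63100.0 and 58913 in MI+Agrin hearts. All MI+Agrin hearts lay above all Sham hearts, and the difference was 1.44 ± 0.18 (adjusted p = 0.000329). Col3a1 rose by 1.0, Col5a1 by 1.24, Col1a2 by 1.24 and Col12a1, which decorates collagen fibrils in tissue under load, by 1.65. The summed level of the 19 genes was 125029 to 180863 in Sham and 238597 to 349958 in MI+Agrin hearts. In the MI+PBS hearts, against the same Sham libraries, 19 of the 19 were higher, with a median of 0.98. Between MI+Agrin and MI+PBS hearts 0 of the 19 passed.

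Enzymes that modify and cross-link collagen rose with it: 20 of 22 were higher and 0 lower, with a median of 0.69. Lox, encoding lysyl oxidase, which cross-links collagen and elastin, was 818, 982, 614 and 854 in Sham and 2239.7, 3092, 3921 and 4019.8 in MI+Agrin hearts. That is a difference of 2.00 ± 0.20 (adjusted p = 0.00011). Bmp1, the protease that trims procollagens, rose by 0.77, and Plod3, a lysyl hydroxylase, by 0.77. Matricellular and provisional matrix genes showed 18 of 24 higher and 0 lower, with a median of 0.73. They included the microfibril gene Mfap5 (0.96), the large proteoglycan gene Vcan (0.90) and Emilin1 (0.80), whose product sits on elastic fibres. In MI+PBS hearts 19 of the 22 enzyme genes were higher than in Sham, with a median of 0.9. For the matricellular list this was 21 of 24, with a median of 1.13. Between the infarcted groups 0 of the 22 enzyme genes passed. Of the 24 matricellular genes 1 passed there, Thbs1, which was lower in MI+Agrin than in MI+PBS hearts.

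Basement membrane and small proteoglycan genes moved in both directions. Among 20 tested, 3 were higher and 5 lower, where 15.4% and 13.2% of all genes were, with a median of -0.01. Bgn, encoding the small proteoglycan biglycan, rose by 0.60 ± 0.13 (adjusted p = 0.00556). Ogn, encoding osteoglycin, fell to 3817, 4003, 3601 and 4058 from 4503, 5011, 5114 and 4717, a difference of -0.32. Lama2, encoding the laminin chain through which basement membrane meets dystroglycan, fell by 0.26. The 3 higher became 5 without MI+Agrin 3, and the 5 lower became 3 without any one of Sham 2, Sham 4, MI+Agrin 3 or MI+Agrin 5.

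Genes of TGF-beta signalling and activated fibroblasts were higher in 14 of 22 and lower in 0, with a median of 0.49, and 1 lower without MI+Agrin 1. Cthrc1, a secreted marker of fibroblasts in healing infarcts, was 295, 309.8, 164 and 423 in Sham and 653, 1091, 1351 and 1111 in MI+Agrin hearts, and rose by 1.85 ± 0.28 (adjusted p = 0.000782). Adam12, a metalloproteinase of activated fibroblasts, rose by 1.42 and the transcription factor gene Runx1 by 1.26. Among 23 matrix proteases and inhibitors 10 were higher and 1 lower. Timp1, the main inducible inhibitor of matrix metalloproteinases, was 812, 960.3, 663 and 866 in Sham and 2417, 3821, 4721 and 3915 in MI+Agrin hearts, with no overlap, a difference of 2.14 ± 0.18 (adjusted p = 3.58e-05), and the aggrecanase gene Adamts4 rose by 1.90. Markers of resting fibroblasts were 2 higher, 1 lower and 9 not passed of 12, and their summed level overlapped, at 109792 to 127301 in Sham and 93601 to 122231 in MI+Agrin hearts. Smoc2 was the lower one (-0.48). Leaving out MI+Agrin 1 gave 2 lower, as did leaving out Sham 2, MI+PBS 2 or MI+PBS 5. Leaving out any one of Sham 2, 3, 4 and 5, MI+Agrin 4 or MI+Agrin 5 gave 1 higher.

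**Figure D2:**
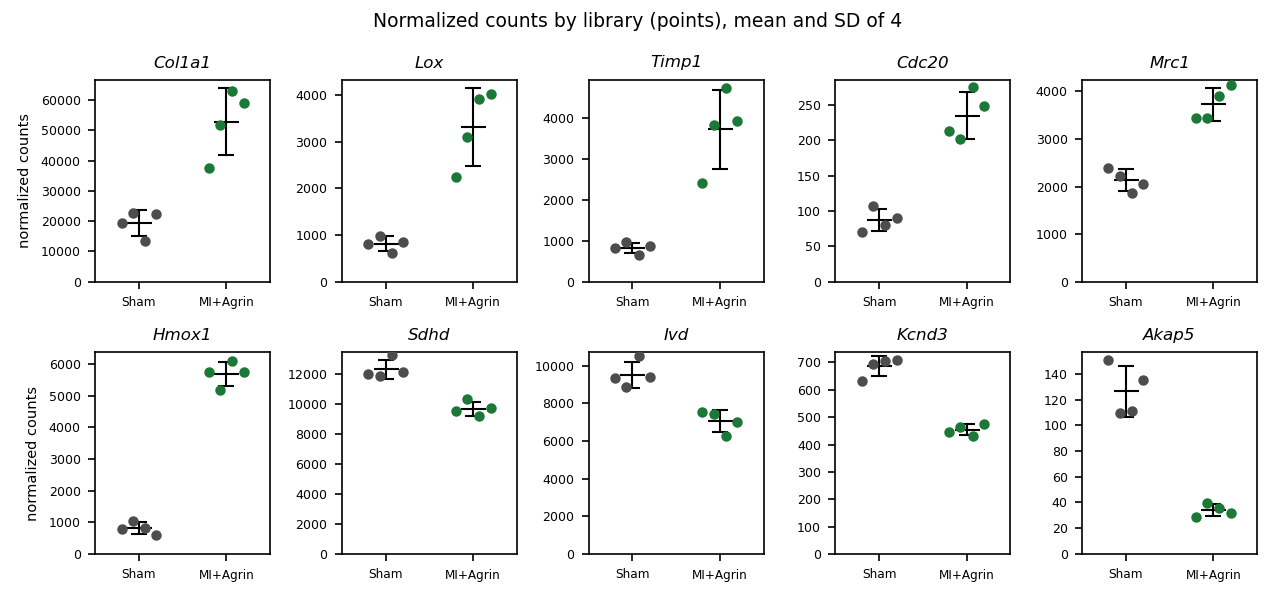
Normalized counts (y axis, from 0) of 10 genes in each of the 4 Sham and 4 MI+Agrin libraries (points), with the mean and SD of each group. In each of the 10 genes the groups do not overlap, as in 32.4% of all genes tested. Hmox1 runs from 612 to 1052 in Sham and from 5180.1 to 6093 in MI+Agrin hearts.

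Most mitosis genes rose, and so did part of the DNA replication genes. Of 28 mitosis genes 26 were higher in MI+Agrin hearts and 0 lower, with a median of 1.31. The MI+PBS hearts, against the same Sham libraries, also had 26 of the 28 higher, with a larger median of 1.77. Between MI+Agrin and MI+PBS hearts 0 of the 28 passed. Cdc20, which activates the anaphase-promoting complex, was 70.8, 108, 80.3 and 90.6 in Sham and 213, 202, 275 and 248 in MI+Agrin hearts. Every MI+Agrin heart was above every Sham heart, and the difference was 1.42 ± 0.18 (adjusted p = 0.000378). Ube2c, the ubiquitin-conjugating enzyme of the same complex, rose by 1.64, the cyclin gene Ccnb1 by 1.62, Hmmr, which works on the spindle, by 1.54, and Birc5, encoding survivin, by 1.51. Levels were low: Ccnb1 was 30.3, 31.9, 19.0 and 21.7 and then 57.8, 85.9, 92.9 and 85.6. DNA replication genes were higher in 16 of 27 and lower in 0, with a median of 0.63, and among those with the smallest p were the licensing factor gene Cdt1 (0.89), Mcm10 (1.20) and the helicase subunit gene Mcm7 (0.52). MI+PBS hearts had 26 of the 27 higher than Sham, with a median of 1.11. Between MI+Agrin and MI+PBS hearts 0 of the 27 passed. The summed level of the 27 was 13540 in MI+PBS 2 and 7580 to 8614 in MI+PBS 1, 3 and 5. In MI+Agrin hearts it was 6195 to 7492. The 16 in MI+Agrin hearts became 10 without Sham 4 and without MI+Agrin 5. Which cells divided was not tested. In the same libraries 19 of 25 macrophage and 14 of 19 collagen genes were higher, and their part in the division genes was not tested.

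The promoters of 4 of these genes are shown because many mitosis genes share a cell cycle homology region, or CHR, next to CCAAT boxes, the elements bound by the MuvB complexes and NF-Y. The sequences run 250 bases before to 50 after the annotated start, from RefSeq on GRCm38.p6, 5′ to 3′ on the strand of the gene. Capitals mark the CHR, TTTGAA or TTCAAA on the other strand, and the CCAAT box on either strand.
Cdc20, chr4:118437294-118437593, minus strand: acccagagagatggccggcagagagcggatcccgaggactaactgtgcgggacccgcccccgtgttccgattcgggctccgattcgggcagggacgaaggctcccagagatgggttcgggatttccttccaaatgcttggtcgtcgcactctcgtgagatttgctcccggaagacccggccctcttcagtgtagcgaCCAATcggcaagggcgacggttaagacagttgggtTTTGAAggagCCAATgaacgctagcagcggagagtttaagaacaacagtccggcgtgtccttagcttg
Ube2c, chr2:164769679-164769978, plus strand: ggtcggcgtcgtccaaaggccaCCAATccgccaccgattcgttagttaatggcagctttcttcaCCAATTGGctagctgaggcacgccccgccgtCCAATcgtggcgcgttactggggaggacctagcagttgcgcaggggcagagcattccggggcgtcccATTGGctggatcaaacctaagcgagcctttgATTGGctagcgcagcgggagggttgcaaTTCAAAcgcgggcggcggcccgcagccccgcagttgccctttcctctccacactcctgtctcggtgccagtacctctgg
Hmmr, chr11:40733388-40733687, minus strand: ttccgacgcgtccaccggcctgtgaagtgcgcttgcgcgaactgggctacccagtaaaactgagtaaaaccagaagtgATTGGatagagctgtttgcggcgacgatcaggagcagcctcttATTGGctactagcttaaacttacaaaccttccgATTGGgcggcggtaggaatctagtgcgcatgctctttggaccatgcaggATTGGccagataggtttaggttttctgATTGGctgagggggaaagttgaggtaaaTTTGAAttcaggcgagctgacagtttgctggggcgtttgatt
Ccnb1, chr13:100786437-100786736, minus strand: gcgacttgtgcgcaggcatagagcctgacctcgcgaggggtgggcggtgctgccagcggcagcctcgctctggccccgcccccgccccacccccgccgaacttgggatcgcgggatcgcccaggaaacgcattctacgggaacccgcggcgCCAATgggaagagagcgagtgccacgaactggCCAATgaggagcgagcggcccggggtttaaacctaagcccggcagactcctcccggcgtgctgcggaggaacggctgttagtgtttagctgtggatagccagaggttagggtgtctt

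Letter matches were frequent in the mitosis promoters. A promoter was found for 25 of the 28 genes, and TTTGAA on either strand was in 18 of them (72.0%), against 14.6% of 11755 tested genes with a promoter. CCAAT on either strand was in 21 (84.0%), against 42.3%. Matches of TTTGAA lay close to the start: 18 of 24 were centred between 50 bases before and 50 after it. In DNA replication genes TTTGAA was in 3 of 23 promoters (13.0%) and CCAAT in 16 (69.6%). Ccnb1 held CCAAT boxes and no TTTGAA in this window. The AP-1 letters TGACTCA, searched on both strands, were in 0 of the 25 mitosis promoters (0.0%), against 4.8%. These are matches of letters, not measured binding, and their relation to the rises was not tested. Cenpa and Cenpf, the mitosis genes that did not pass, held both motifs. Birc5, Nusap1 and Mad2l1, which were higher, held neither.

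**Figure D3:**
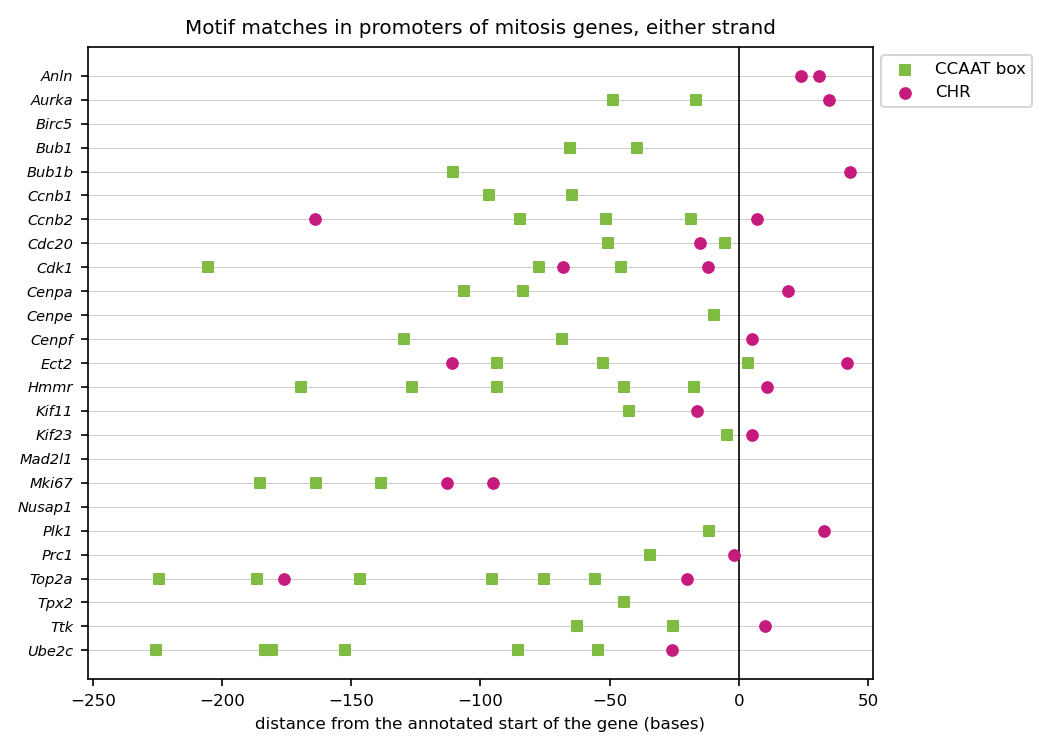
Distance in bases from the annotated start (x axis) of CHR and CCAAT matches on either strand in the promoters of 25 mitosis genes (rows), 250 bases before to 50 after the start. Of 24 CHR matches, 18 lie between -50 and 50.

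Most genes of the macrophage, neutrophil and cytokine lists rose, and few lymphocyte genes passed. Macrophage genes were higher in 19 of 25 and lower in 1, Retnla, with a median of 0.85. Mrc1, encoding the mannose receptor of tissue macrophages, was 2393, 2227, 1859.7 and 2063 in Sham and 3444, 3434, 3914 and 4128 in MI+Agrin hearts. The groups did not overlap and the difference was 0.81 ± 0.08 (adjusted p = 0.00013). Lgals3, encoding galectin-3, rose by 1.67 and the Fc receptor gene Fcgr3 by 1.06. The summed level of the 25 genes was 17115 to 22782 in Sham and 31432 to 43773 in MI+Agrin hearts. Without MI+Agrin 1 there were 2 lower, and without Sham 2 there were 0. MI+PBS hearts had 22 of the 25 higher than Sham and 1 lower, with a median of 1.17. Between the infarcted groups 0 of the 25 passed.

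Neutrophil genes were few and low. Of 12 on the list 8 were tested, and 6 of these were higher and 0 lower, with a median of 1.68. Csf3r, encoding the receptor for granulocyte colony-stimulating factor, was 177, 166, 138 and 134 in Sham and 285, 397, 406 and 418 in MI+Agrin hearts, a rise of 1.28 ± 0.14 (adjusted p = 0.00018). The chemokine receptor gene Cxcr2 rose by 2.08. Chemokines, cytokines and their receptors were higher in 23 of 34 and lower in 0, with a median of 1.05, and 1 lower without MI+Agrin 5. Osmr, the receptor subunit for oncostatin M, was 1049, 1023, 920.4 and 1120.0 and then 2057, 2050.1, 2359 and 2052, a rise of 1.05 ± 0.09 (adjusted p = 3.58e-05). Il1rn, the natural antagonist of interleukin 1, rose by 1.95, and Csf2rb by 0.92. In MI+PBS hearts 7 of the 8 neutrophil genes were higher than in Sham and 0 lower. Of the 34 genes of chemokines, cytokines and their receptors, 20 were higher there and 1 lower. Between the infarcted groups 0 of the 8 and 0 of the 34 passed.

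T and NK cell genes were at low levels, with a summed level of 483 to 572 in Sham and 375 to 492 in MI+Agrin hearts. Of 13 tested, 0 were higher and 1, Cd28, was lower, a call that was lost without any single one of the 8 libraries compared. Without Sham 5, MI+PBS 2, MI+PBS 5 or MI+Agrin 1, 1 of them was higher. Genes of antigen presentation by MHC class II were 1 higher, Ctss, a cathepsin that also marks macrophages (1.19), and 0 lower of 9. H2-Aa was 980.5, 939, 948 and 922 in Sham and 567, 671, 753 and 1048 in MI+Agrin hearts, overlapping groups (adjusted p = 0.327). Complement genes were higher in 6 of 19 and lower in 0, among them the receptor gene C3ar1 (1.37) and Cfp, encoding properdin (1.05). Interferon-stimulated genes were 0 higher and 1 lower of 26, the lower one being the GTPase gene Iigp1 (-0.95). That list depended on single libraries, with 8 higher without MI+Agrin 1, 3 lower without Sham 4 and 2 lower without MI+Agrin 3.

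Calls were also mostly upward among genes of protein folding stress and of heme, iron and metal handling. Among 29 genes of the unfolded protein response and of the factor ATF4, 21 were higher and 0 lower, with a median of 0.44. Sdf2l1, an endoplasmic reticulum protein of the unfolded protein response, was 183, 198, 173 and 151 in Sham and 359.8, 336, 471 and 393 in MI+Agrin hearts, a rise of 1.14 ± 0.14 (adjusted p = 0.000288). The chaperone gene Calr rose by 0.57. Of 24 antioxidant, heme and iron genes 11 were higher, 1 lower and 12 not passed. Ftl1, the ferritin light chain, rose by 1.02 ± 0.08 (adjusted p = 3.58e-05) and Mt1, a metallothionein gene, by 1.25. Immediate early and heat shock genes were higher in 7 of 25 and lower in 1, Nr4a1, the higher ones including Junb (1.06) and Myc (1.03). The Myc rise was smaller than in the MI+PBS hearts (1.80), and that difference passed (-0.77, adjusted p = 0.0442).

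**Figure D4:**
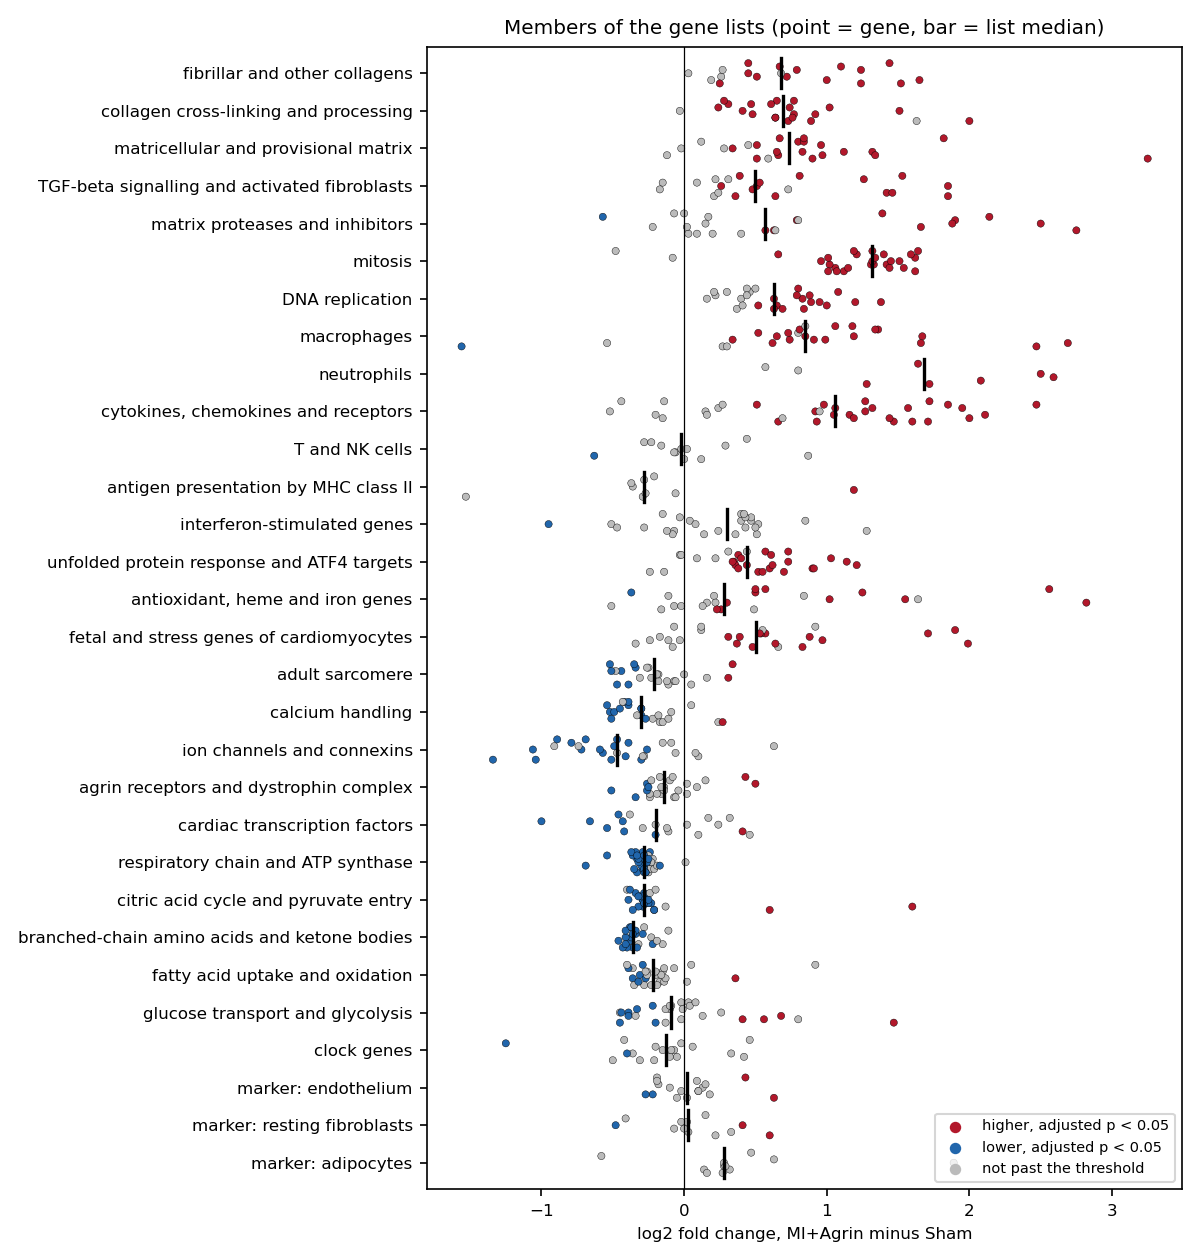
Log2 fold change of MI+Agrin minus Sham (x axis) for the tested members of 30 gene lists (rows); each point is a gene, red if higher and blue if lower at an adjusted p under 0.05, grey otherwise, and the black bar is the list median. The collagen list has a median of 0.68, mitosis of 1.31 and neutrophils of 1.68; the respiratory chain has -0.28 and ion channels -0.47.

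The cardiomyocyte lists differed in direction: calls were upward in the fetal and stress list and mostly downward in the sarcomere, calcium and channel lists. Fetal and stress genes were higher in 14 of 26 and lower in 0, with a median of 0.50. Without MI+Agrin 4 the 14 became 9. Nppa, Nppb, Myh7, Acta1, Actc1, Tnni1, Myl4 and Myl7 on that list did not pass. The 14 included Acta2, which is also on the activated fibroblast and smooth muscle lists. They also included Des, on the smooth muscle list, and Ctgf, on the matricellular list. Which cells these rises came from was not tested. Fhl1, a LIM protein of the stretched sarcomere, was 7328, 6273, 6264 and 7606 in Sham and 10159, 14401, 15332 and 14531 in MI+Agrin hearts, a rise of 0.97 ± 0.12 (adjusted p = 0.000272). Actn1, a non-muscle alpha-actinin, rose by 0.88, and Ankrd2, a stretch-induced ankyrin repeat protein, by 1.90 from low levels. Adult sarcomere genes were 2 higher and 7 lower of 24, with a median of -0.21. The 24 include the calcium channel gene Cacna1c (-0.18, not passed), which is not a sarcomere gene and is also on the calcium handling list. Nebl, encoding the thin filament protein nebulette, fell by 0.39, Myl2, the ventricular regulatory light chain, by 0.52 and Tcap, encoding telethonin of the Z-disc, by 0.51. The 7 lower became 3 without Sham 4 and without MI+Agrin 5, and the 2 higher became 0 or 1 without any one of the Sham hearts, MI+Agrin 3, MI+Agrin 4 or MI+Agrin 5.

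Ion channels and connexins had the lowest median of the muscle gene lists: 16 of 27 were lower and 0 higher, with a median of -0.47. Kcnd3, encoding a channel of the transient outward potassium current, was 632, 695, 707 and 710.2 in Sham and 446, 465, 432 and 476 in MI+Agrin hearts. The groups did not overlap and the difference was -0.59 ± 0.08 (adjusted p = 0.000379). Kcnj3, a subunit of the acetylcholine-gated potassium channel, fell by 0.72 and the chloride channel gene Clcn1 by 1.34. Without MI+PBS 3 in the estimate of the spread, 1 member was higher. Calcium handling genes were 11 lower and 1 higher of 23, with a median of -0.30. Itpr1, an intracellular calcium release channel, fell by 0.39 and Camk2d, the main cardiac calmodulin kinase, by 0.30, while Sri, encoding sorcin, which binds the ryanodine receptor, rose by 0.27; 2 were higher without MI+PBS 2, MI+PBS 3 or MI+Agrin 1.

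Among 25 genes of agrin receptors and the dystrophin complex, 2 were higher and 5 lower, with a median of -0.14, and the 7 together are a share near the 28.6% of all genes. Lrp4, the receptor through which agrin activates MuSK, was 557, 569, 588 and 562 in Sham and 515, 443, 497 and 451 in MI+Agrin hearts. The groups did not overlap and the difference was -0.26 ± 0.07 (adjusted p = 0.0129); this gene was named after its values were seen. Dok7, the cytoplasmic activator of MuSK, was 518, 503, 591 and 567 in Sham and 848, 717, 746 and 760.0 in MI+Agrin hearts, with every MI+Agrin heart above every Sham heart, and rose by 0.50 ± 0.08 (adjusted p = 0.00109). Sspn, encoding sarcospan of the dystrophin complex, fell by 0.51, and Utrn, encoding utrophin, by 0.25. The MI+PBS hearts gave, against the same Sham libraries, differences of -0.45 for Lrp4, 0.38 for Dok7 and -0.68 for Sspn. None of these genes passed between MI+Agrin and MI+PBS by limma (adjusted p = 0.17, 0.461 and 0.395). Among 19 cardiac transcription factor genes 1 was higher and 7 were lower. Myocd, encoding myocardin, fell from 1775, 2084, 2419 and 1933 to 1448, 1393, 1252 and 1098, a difference of -0.66 ± 0.12 (adjusted p = 0.00174), and Mef2c fell by 0.54. The 1 higher became 0 without Sham 4, MI+Agrin 4 or MI+Agrin 5.

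Most respiratory chain genes were lower, by small amounts. Of 34 genes of the respiratory chain and ATP synthase, 26 were lower and 0 higher, with a median of -0.28 and a range of -0.69 to 0.01, against 13.2% of all genes lower. Sdhd, a membrane anchor of succinate dehydrogenase, was 11969, 11827, 13216 and 12101 in Sham and 9486, 10284, 9197 and 9678 in MI+Agrin hearts. The groups did not overlap, and the difference was -0.35 ± 0.06 (adjusted p = 0.00174). Uqcrfs1, the Rieske protein of complex III, fell by 0.33 and Ndufb8 of complex I by 0.54. The 26 became 17 without Sham 4 and without MI+Agrin 5. In the MI+PBS hearts, against the same Sham libraries, 32 of the 34 were lower with a median of -0.45, and 0 of the 34 passed between MI+Agrin and MI+PBS by limma. There 14 of them had an unadjusted p under 0.05, all 14 higher in MI+Agrin hearts. Over all 14906 genes 2802 had such a p, in either direction. All 34 were measured in the same libraries, so the 14 are not independent results. The summed level of the 34 was 486877 in MI+PBS 2 and 558502 to 573640 in MI+PBS 1, 3 and 5. In MI+Agrin hearts it was 600806 to 664565.

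Fuel genes differed among themselves. Branched-chain amino acid and ketone body genes were lower in 17 of 23 and higher in 0, with a median of -0.36. Ivd, which oxidises a product of leucine, was 9363, 8874, 10511 and 9396 in Sham and 7570.4, 7446, 6293 and 6990.0 in MI+Agrin hearts, a difference of -0.43 ± 0.09 (adjusted p = 0.00376). Pcca and Mut, of the propionate pathway, fell by 0.37 and 0.36. Citric acid cycle and pyruvate genes were 19 lower and 2 higher of 26. Dld, a subunit shared by pyruvate and ketoglutarate dehydrogenases, fell by 0.29, and Pdk3, a kinase that blocks pyruvate entry, rose by 0.60. The 19 became 11 without Sham 4, Sham 5 or MI+Agrin 5 and 7 without MI+Agrin 4.

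Fatty acid uptake and oxidation was the fuel list that moved most with single libraries, with 6 lower and 1 higher of 28 and a median of -0.21. Fabp3, the fatty acid binding protein of muscle, was 19189, 17829.8, 22782 and 20027 in Sham and 14478, 16958, 14917 and 14593 in MI+Agrin hearts, a difference of -0.39 ± 0.10 (adjusted p = 0.0141). Acadm, a medium-chain dehydrogenase, fell by 0.36 (adjusted p = 0.0193), a call lost without Sham 4, MI+Agrin 4 or MI+Agrin 5 (-0.32 in each). Cpt1a, the liver-type carnitine transferase, was the one higher (0.36). The 6 lower became 2 without Sham 2 or Sham 5, 1 without Sham 4, MI+Agrin 4 or MI+Agrin 5, and 11 without MI+PBS 2, which also gave 2 higher. In the MI+PBS hearts 21 of the 28 were lower, with a median of -0.47, and 0 passed between the infarcted groups by limma. There 12 had an unadjusted p under 0.05, all 12 higher in MI+Agrin hearts, against 2802 of all 14906 genes in either direction. The 12 share the same libraries and are not independent results. The summed level of the 28 was 291321 in MI+PBS 2 and 369689 to 412313 in MI+PBS 1, 3 and 5. In MI+Agrin hearts it was 398850 to 447205.

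Glucose transport and glycolysis genes moved in both directions: of 27, 4 were higher, 7 lower and 16 not passed. Slc16a3, a lactate exporter, was 174, 217, 143 and 166 in Sham and 374, 415, 688 and 503 in MI+Agrin hearts, a rise of 1.47 ± 0.21 (adjusted p = 0.000572). Slc2a4, the insulin-responsive glucose transporter, fell by 0.33, less than the fall of 0.66 in MI+PBS hearts, and the difference between the infarcted groups passed (0.33, adjusted p = 0.0175). Pfkm, the muscle phosphofructokinase, fell by 0.45. Among 19 regulators of mitochondria, 5 were lower, including the deacetylase gene Sirt3 (-0.39) and the nuclear receptor gene Esrrg (-0.50). Ppargc1a, the co-activator that drives mitochondrial genes, was the 1 higher: it was 3394, 3234, 3607 and 3448 in Sham and 8150.1, 5823, 4353 and 7412 in MI+Agrin hearts, with no overlap, a rise of 0.87 ± 0.22 (adjusted p = 0.0114). It did not pass in MI+PBS hearts (0.25, adjusted p = 0.378) or between the infarcted groups (0.62, adjusted p = 0.171). Without MI+PBS 2 or MI+PBS 3, 2 regulators were higher.

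Signalling genes moved in both directions. YAP and TEAD targets were 11 higher and 2 lower of 23, including Myof, a membrane repair protein (0.76), and, lower, the growth arrest gene Gadd45a (-0.78). The 10 not passed included Cyr61 (-0.02), Amotl2 (-0.12), Lats2 (-0.02), Crim1 (-0.03), F3 (0.02) and Ajuba (0.27). Among the higher, Ctgf, Ankrd1, Tgfb2, Fstl1 and Birc5 are also on the matricellular, stress, activated fibroblast or mitosis lists. YAP activity was not tested. The 11 became 7 without Sham 2, Sham 3 or MI+Agrin 5 and 6 without MI+Agrin 4, and without Sham 2 only 1 was lower. Against the same Sham libraries, 12 of the 23 were higher and 2 lower in MI+PBS hearts. Between the infarcted groups 1 of the 23 passed, Gadd45b, which was lower in MI+Agrin hearts. Angiogenic factors and receptors were 5 higher and 8 lower of 30. Angptl4, a lipase inhibitor induced by hypoxia and fasting, was 204, 296, 259 and 149.7 in Sham and 786, 974, 872 and 817 in MI+Agrin hearts, a rise of 1.96 ± 0.25 (adjusted p = 0.000356). The Notch ligand gene Jag1 rose by 0.56 and Nrp1, a co-receptor of VEGF, fell by 0.41. The 8 lower became 4 without Sham 5, 3 without MI+Agrin 4 and 5 without MI+Agrin 5. The 17 endothelial markers were 2 higher and 2 lower, where 15.4% and 13.2% of all genes were. Their summed level was 56354 to 59351 in Sham and 57611 to 61908 in MI+Agrin hearts. One of the higher was Sox18, a transcription factor of vessel growth (0.63). The 2 lower became 1 without Sham 2, Sham 4, Sham 5, MI+PBS 1, MI+PBS 3, MI+PBS 5, MI+Agrin 1 or MI+Agrin 5 and 0 without MI+Agrin 4.

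Growth factor feedback and insulin signalling genes were 7 higher and 9 lower of 35, the 9 becoming 5 without Sham 2, Sham 5 or MI+Agrin 4. Egfr, the epidermal growth factor receptor, rose by 0.67, and Trim63, a ubiquitin ligase of muscle wasting, fell by 0.55. Among 28 adrenergic, natriuretic and renin-angiotensin genes, 6 were higher and 3 lower, where 15.4% and 13.2% of all genes were. The 3 became 5 without MI+PBS 2. Furin, a convertase of propeptides, rose by 0.44 and the angiotensin-converting enzyme gene Ace by 0.42. Agtr1a, the main angiotensin receptor, was 870.3, 883, 1189.8 and 869 in Sham and 572, 566, 462 and 452 in MI+Agrin hearts, a difference of -0.89 ± 0.14 (adjusted p = 0.000988).

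Some genes stood apart from both the Sham and the MI+PBS hearts. They passed both against Sham and against MI+PBS, and of such genes they are the 8 in each direction whose larger p of the pair was smallest. Both contrasts chose them and share the MI+Agrin libraries, so their values are a description. The 8 lower genes shown were each below both other groups; further genes that passed both tests, some of them between the groups, are not described. Per1, a clock repressor that also responds to glucocorticoids and cAMP, was 1997, 2126, 2269 and 2262 in Sham, 2862, 2457, 2516 and 2139.8 in MI+PBS 1, 2, 3 and 5 and 1277, 504, 981 and 1085 in MI+Agrin hearts. No MI+Agrin heart reached the lowest heart of either other group. Kcna5, the channel of the ultrarapid potassium current, was 693, 680.3, 710.1 and 903, then 902, 729, 807 and 865, then 366, 255, 502 and 358 in the same order of groups. Errfi1, a feedback inhibitor of the EGF receptor, differed by -0.82 from Sham, whereas MI+PBS hearts differed by 0.52. Sik1, a salt-inducible kinase, gave -0.84 and 0.32. The other 4 were Dach1, a transcription factor of coronary artery growth (-1.20 and -0.30), the co-repressor gene Irf2bp2 (-0.73 and -0.01), Tmtc2 (-0.90 and -0.20) and Fzd4, a Wnt and norrin receptor of vessels (-0.42 and -0.09), with MI+Agrin minus Sham first and MI+PBS minus Sham second.

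**Figure D5:**
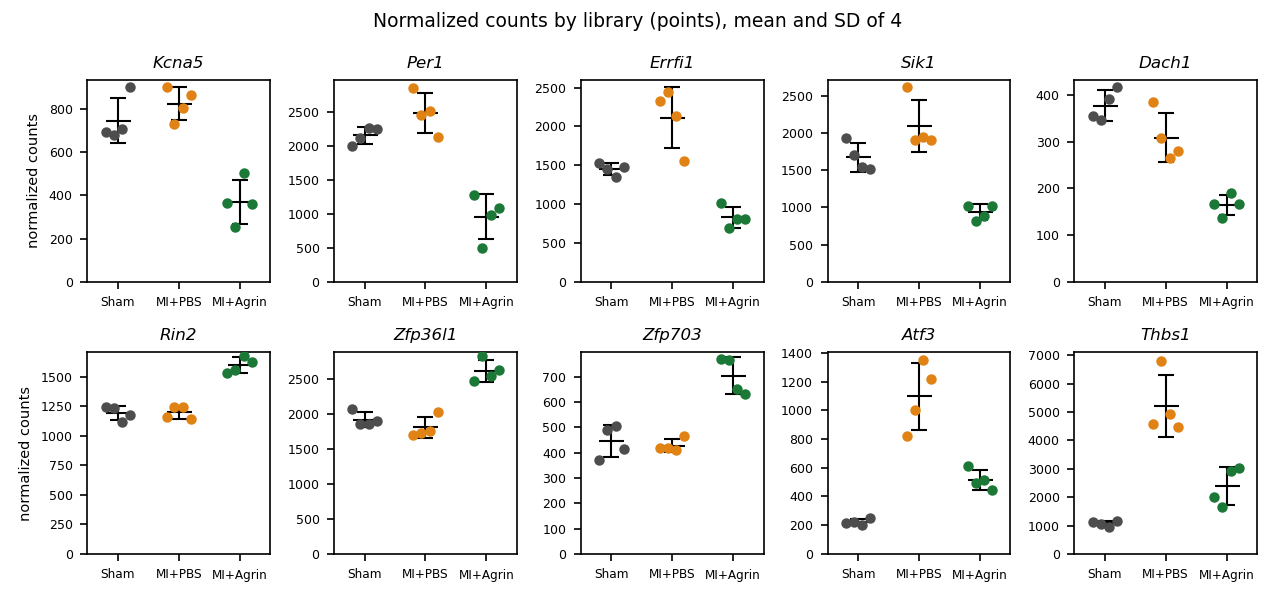
Normalized counts (y axis, from 0) of 10 genes in the 4 Sham, 4 MI+PBS and 4 MI+Agrin libraries (points), with mean and SD of each group. In the upper row MI+Agrin hearts lie below both other groups; in the lower row Rin2, Zfp36l1 and Zfp703 lie above both, and Atf3 and Thbs1 lie between them.

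On the higher side 3 of the 8 were above both other groups. Zfp36l1, which binds AU-rich messages and speeds their decay, was 2075, 1855, 1851 and 1896 in Sham, 1704, 1735, 1763 and 2036 in MI+PBS and 2475, 2826, 2538 and 2628 in MI+Agrin hearts. Rin2, an exchange factor for Rab5, gave 0.42 against Sham where MI+PBS hearts gave 0.01, and the co-repressor gene Zfp703 gave 0.66 and -0.05. The other 5 lay between the groups. Atf3, a stress-induced transcription factor, was 214, 223, 204 and 247 in Sham, 824, 1001, 1347 and 1216 in MI+PBS and 612, 493, 514 and 445 in MI+Agrin hearts. Thbs1, encoding thrombospondin 1, which activates TGF-beta and restrains vessel growth, gave 1.12 and 2.26, and Sphk1, a sphingosine kinase, 1.21 and 2.29. Ercc1, a subunit of a DNA repair nuclease, gave 0.47 and 0.83, and Galnt16, an O-glycosylating enzyme, 0.42 and 0.81.

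A further 3 genes, chosen after their values were seen, were below Sham in MI+Agrin hearts and above it in MI+PBS hearts. Ddit4, an inhibitor of mTOR induced by stress and glucocorticoids, was 1501, 1459.6, 1719 and 2001 in Sham, 2717, 1846, 3094 and 2454 in MI+PBS and 1234, 618, 811 and 789 in MI+Agrin hearts. S1pr1, the sphingosine phosphate receptor of vessels, gave -0.41 against Sham where MI+PBS hearts gave 0.41. Nr4a1, an immediate early nuclear receptor, gave -0.68 (adjusted p = 0.0446) and 1.03. Its call against Sham was lost without any one of Sham 2, 3, 4 and 5, MI+PBS 2, MI+PBS 3, MI+Agrin 3 or MI+Agrin 4, with values from -0.75 to -0.50. It was also lost by edgeR (-0.51, adjusted p = 0.164), by DESeq2 (-0.51, adjusted p = 0.12), with equal totals (-0.64, adjusted p = 0.0642) and with no trend (adjusted p = 0.0694).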

How the data were processed

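Mouse heart polyA RNA was read from 1 end for 61 bp (HiSeq2500), per the labels. The authors deposited 1 table of normalized counts for 12 libraries. Cutadapt, STAR 2.4.2a, HTSeq, DESeq2 1.10.1 and build mm10 are named in the submitters' processing notes, while the strand setting was not given in the sources used here. Values as deposited, a signal of counts divided by a factor per library, are whole multiples of 1 step in 11 libraries (99.99 to 100% of values whole within 0.0055 of a read). Sham 2 was left out of the count tests because its step could not be told from 1.

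The 14906 of 16218 genes with a mean of at least 5 were tested with limma 3.58.1 (R 4.3.3) on log2(value + 1), with an intensity trend, 3 groups of 4 libraries and Benjamini-Hochberg adjustment over all genes. The groups came from the labels. Alternatives were pseudocounts of 0.5 and 5, other filters, TMM rescaling, equal totals, no trend, sample weights, only 8 libraries, count tests of the recovered reads (edgeR 4.0.16, DESeq2 1.42.0), a replicate block, and each library left out. Replicates of a group differed beyond counting noise (chi-square per degree of freedom of 9.92 or more) in every pair with recovered reads, which leaves out Sham 2. The model was tested on simulated data. The depth, about equal in all libraries, limits genes of few counts.

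Genes named were 10 fixed ones, the 12 largest rises and falls without overlap and with a mean of at least 50, up to 4 per list with the smallest p, 8 per direction that also passed against MI+PBS, and 4 named after their values were seen. The 51 lists and the rule were chosen with earlier results of these data known. Gene models were GENCODE M21 on GRCm38, and promoters were RefSeq on GRCm38.p6. Of 14906 genes, 11755 had a promoter, matched by symbol or synonym.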

Additional observations from a re-analysis of the deposited data

Results flagged for a closer look

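In 19 of 327 groups of 4 libraries, over the genes named with values, 1 library lay far from the other 3 by Dixon's criterion for 4 values, close to the 1 in 20 that chance gives. In normalized counts, MI+Agrin 1 was the distant one for Myh7 (55835.59), Nr4a3 (879.67), Csf3r (284.78) and Mef2c (1817.1). Sham 4 was distant for Myh6 (711982.12), Cpt1a (2022.47), Esrrg (1927.37) and Agtr1a (1189.81). Sham 3 was distant for Sh2d5 (19.16), Ercc1 (387.53) and Galnt16 (431.19), and Sham 5 for Nr4a3 (49.25) and Kcna5 (903.32). Retnla was distant in Sham 2 (206.2), Osmr in MI+Agrin 4 (2358.73), and Plekhh1 (188.11) and Sspn (6304.39) in MI+Agrin 5. Among MI+PBS hearts, Sik1 was distant in replicate 1 (2623.9) and Zfp703 in replicate 5 (468.16).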

How the results depend on the processing

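Leaving out each library in turn gave 3072 to 4707 genes past the threshold, 1756 to 2488 higher, 1313 to 2219 lower and 466 to 718 changed by at least 1 log2 unit. The lowest count of lower genes was without Sham 4. An adjusted p under 0.01 left 2062 genes, 1258 higher and 804 lower, and a mean of at least 50 left 395 genes changed by at least 1 log2 unit, because fewer genes were tested and called. The other settings gave 3309 (edgeR on recovered reads) to 5324 (sample quality weights) genes, and leaving out MI+Agrin 1 and MI+PBS 2 together, chosen after seeing the data, gave 4730. Scaling to equal totals moved the median of all genes to 0.037 and the share of higher genes from 53.7% to 62.3%. The replicate numbers gave no pairing: deviations of same-numbered Sham and MI+Agrin libraries correlated at -0.285, -0.188 and 0.121, and a fit with the replicate block gave 3660 genes, 1989 higher and 1671 lower. Signs changed for Dag1 with equal totals (0.0026, adjusted p = 0.978) and for Myh7 without Sham 4 (0.0049, adjusted p = 0.989; -0.25 without MI+Agrin 1), neither past the threshold in any form; the cause was not tested. Of 146 called genes named with values, 134 stayed past it in all 26 alternatives and 0 changed sign. By edgeR, Postn (0.92), Retnla (-1.08) and Nr4a1 (-0.51) were not past the threshold. Nppb passed with the replicate block (1.29, adjusted p = 0.0113). Counts of list members moved by over 1.5 times in 326 of 2652 cases.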

Other observations

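Clock genes were 0 higher and 2 lower of 18, Per1 among the lower; 1 was lower without Sham 4, and 1 was higher without MI+PBS 2, MI+Agrin 1, MI+Agrin 3 or MI+Agrin 5. Intercalated disc and costamere genes were 5 higher and 4 lower of 22. Xirp1, an actin-binding repair protein of the disc, rose by 0.39, less than in MI+PBS hearts (0.78), and the difference between the infarcted groups passed (-0.39, adjusted p = 0.0382). Tln1, encoding talin of the costamere, rose by 0.26. The 4 lower became 1 without Sham 4 or MI+Agrin 4 and 2 without MI+Agrin 5.

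Energy buffer and lipid storage genes were 4 higher and 3 lower of 24, where 15.4% and 13.2% of all genes were. Plin2, which coats lipid droplets, was 1630.4, 1518, 1474 and 1589 in Sham and 2260.0, 2828, 2948 and 3437 in MI+Agrin hearts, a rise of 0.87 ± 0.11 (adjusted p = 0.000356), and Ak1, an adenylate kinase, fell by 0.45. The 3 lower became 1 without any one of the 8 libraries compared except MI+Agrin 1, and without MI+PBS 3. Pericyte and smooth muscle markers were 3 higher and 3 lower of 12, with Cspg4 of pericytes higher (0.46) and Abcc9, a subunit of their ATP-sensitive potassium channel that cardiomyocytes also express, lower (-0.65). Of 5 lymphatic markers tested 2 were higher and 1 lower. Pdpn, which also marks activated stroma, rose by 1.26 and Lyve1, which macrophages share, by 0.73. Prox1, a lymphatic transcription factor that is also on the cardiac transcription factor list, fell by 0.46. Flt4 (0.07) and Reln (-0.02) did not pass. Of 7 erythroid and platelet markers tested 2 were higher, among them the platelet factor gene Pf4 (1.08), and 0 lower; 1 was higher without any one of Sham 2, Sham 4, Sham 5, MI+Agrin 1, MI+Agrin 3 or MI+Agrin 4. Tcap, of the Z-disc, stood at -0.51 against Sham in MI+Agrin hearts and at -0.99 in MI+PBS hearts, a difference that passed (0.49, adjusted p = 0.0493).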
